A study of Mus musculus with 24 samples.

Results

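The 10 genes described here are the Toll-like receptors Tlr1 to Tlr9 and the adaptor Myd88, taken by symbol from the 55536 genes of a table of read counts from mouse ileum. All 10 were present in the table, and 9 had enough reads to be tested, the exception being Tlr6. RNA of the ileum from 24 mice of the inbred strain C57BL/6N was depleted of ribosomal RNA and sequenced, with 1 library per animal. Mice aged 4 to 5 weeks at the start received a control diet with 10% of energy from fat (CD) or a high-fat diet with 60% (HFD) for 20 weeks, and for the next 10 weeks part of each diet group drank metformin, a drug used against type II diabetes, at a daily 50 mg/kg body mass (CDmetf and HFDmetf). The 6 animals of a group were 3 males (M1, M2, M3) and 3 females (F1, F2, F3), and the question put to the groups was what diet and metformin did to expression in the gut wall.

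Toll-like receptors are membrane proteins of the innate immune system that bind molecules typical of microbes. Tlr1, Tlr2, Tlr4, Tlr5 and Tlr6 act at the cell surface, where Tlr2 pairs with Tlr1 or Tlr6 to bind bacterial lipoproteins, Tlr4 recognises lipopolysaccharide and Tlr5 recognises flagellin. Tlr3, Tlr7, Tlr8 and Tlr9 act in endosomes on nucleic acids, with double-stranded RNA as the ligand of Tlr3, single-stranded RNA of Tlr7 and unmethylated CpG DNA of Tlr9. Apart from Tlr3, which uses the adaptor Ticam1, they pass their signal through Myd88 to the Irak kinases, Traf6 and NF-kappa B. In the intestine they are known from epithelial cells as well as from macrophages, dendritic cells and the B cells of Peyer's patches and lymphoid follicles, and in mice Tlr9 is well known as a receptor of B cells.

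The libraries held 1829690 to 40606442 reads on genes. In the library of CD M3 10 genes took 85.4% of the reads and in that of HFDmetf F2 36.6%, against 9.22% to 18.97% in the others. In the library labelled HFD M2 and in the library labelled HFD F2, Xist and Y-linked reads went against the labelled sex. Both were kept under their labels. Values without them are given beside some comparisons of HFD with CD, of the sexes and of marker content. Values given for all libraries alone could move without them as well. All 5 epithelial and all 5 Paneth cell markers were detected in every group, at summed levels of 2009 to 17381 and 4064 to 14472 CPM (edgeR's depth-scaled counts, with TMM library sizes).

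Sequence bears on which of these genes can be counted apart. Among the 45 pairs of members, the transcripts of Tlr1 and Tlr6 alone shared stretches of 100 bases, with 259 shared stretches that made up 7.89% of those of Tlr1 and 7.09% of those of Tlr6. The longest identical run had 229 bases, lay in the coding sequence within 1 exon of both genes, and is shown because a read that falls wholly inside it cannot be given to either gene. It is found on the minus strand at chr5:64925537-64925765 in Tlr1 and at chr5:64953828-64954056 in Tlr6 (GRCm38).
Tlr1 and Tlr6: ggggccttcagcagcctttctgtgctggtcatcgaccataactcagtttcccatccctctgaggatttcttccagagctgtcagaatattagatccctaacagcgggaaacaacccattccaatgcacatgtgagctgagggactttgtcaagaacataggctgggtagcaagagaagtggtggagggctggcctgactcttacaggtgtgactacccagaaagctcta
The counts of both genes are uncertain to that extent. Exons of Myd88 (chr9:119335934-119341411, minus strand) overlap those of Acaa1a on the opposite strand, a peroxisomal thiolase gene with 25447 reads over all libraries against 6380 for Myd88, and the strand used for counting is not given in the sources used here. Reads of this pair therefore cannot be told apart with certainty.

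The sequences before 3 of the starts are shown for the receptor that followed a B-cell gene across the libraries (Tlr9), for the one with the next largest slope on it (Tlr1) and for the adaptor, whose slope was near 0 (Myd88). Each line gives the 250 bases before the RefSeq start in GRCm38.p6, with capitals for a match, on either strand, to the octamer ATGCAAAT or to the motif GAGGAAGT of the myeloid and B-cell factor PU.1. The windows are chr9:106222348-106222597 on the plus strand for Tlr9, chr5:64933559-64933808 on the minus strand for Tlr1 and chr9:119340019-119340268 on the minus strand for Myd88.
Tlr9: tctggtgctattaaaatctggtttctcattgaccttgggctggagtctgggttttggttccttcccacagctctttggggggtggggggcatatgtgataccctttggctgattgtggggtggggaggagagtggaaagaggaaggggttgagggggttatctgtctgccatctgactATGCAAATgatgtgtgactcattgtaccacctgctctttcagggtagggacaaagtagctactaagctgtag
Tlr1: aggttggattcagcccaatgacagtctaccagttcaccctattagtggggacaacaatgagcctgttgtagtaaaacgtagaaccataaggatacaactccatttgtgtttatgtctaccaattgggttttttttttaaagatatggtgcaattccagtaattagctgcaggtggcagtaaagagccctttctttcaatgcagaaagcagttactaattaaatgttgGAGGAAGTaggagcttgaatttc
Myd88: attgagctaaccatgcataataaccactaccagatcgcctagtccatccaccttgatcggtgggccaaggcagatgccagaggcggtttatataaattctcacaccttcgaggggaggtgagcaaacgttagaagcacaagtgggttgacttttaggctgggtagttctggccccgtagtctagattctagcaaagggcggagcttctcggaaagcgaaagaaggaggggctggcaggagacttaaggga
The octamer, the sequence bound by the Oct-1 and Oct-2 proteins, was found before Tlr9 and in none of the other 7 member promoters in the table, against 1.60% of 32851 promoters of this length. The PU.1 motif was found before Tlr1 and in none of the other 7, against 2.44% of all promoters. The 2 motifs do not overlap each other in these windows, and neither is found in that of Myd88. The Myd88 window lies inside the gene as annotated (chr9:119335934-119341411, minus strand), past its annotated start. Those of Tlr9 and Tlr1 lie at the annotated start, so the 3 windows are not placed alike. The 2 motifs were chosen with the values of these genes known, and others were searched that are not reported here. The shares beside them are therefore no independent support. A match is a description of these letters and not evidence of a bound site. Tlr1 has 2 entries in the table, of which the one nearest to the annotated start is shown.

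All 10 genes gave reads, but their levels per length differed widely. Myd88 had the highest level, at 8.60 ± 1.61 CPM per kilobase of exon (SD, n = 24 libraries), and lay at percentile 68.2 of the genes tested. Tlr3 followed with 6.73 ± 1.89, at percentile 61.6, and was above the next receptor in 24 of 24 libraries. These 2 genes were therefore the members expressed at the level of an ordinary gene of this tissue, with 31 to 1013 reads per library for Myd88 and 56 to 2171 for Tlr3.

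**Figure D1:**
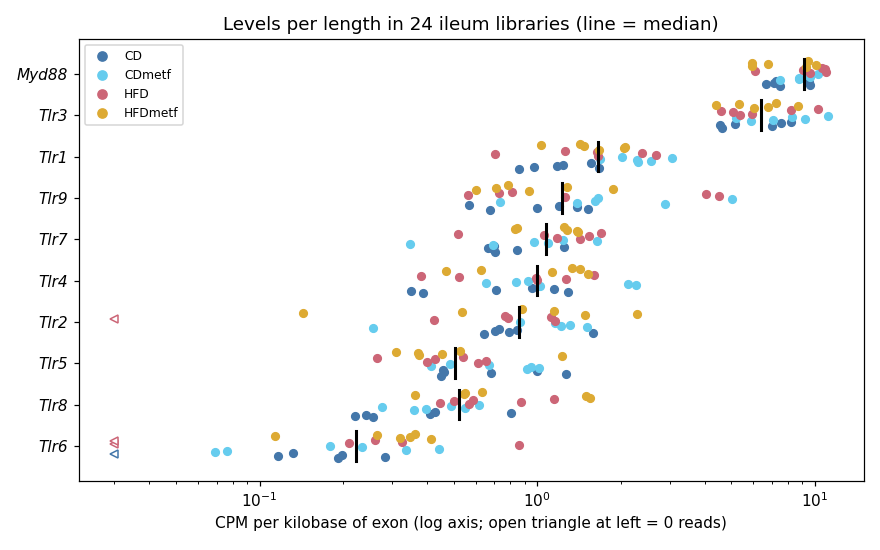
Level of each gene in CPM per kilobase of exon (x axis, log scale) in the 24 libraries, with 1 point per library coloured by group, a black line at the median and open triangles at the left edge for libraries with 0 reads. Myd88 and Tlr3 lie apart from the other 8 genes, and Tlr9 has 3 libraries far above its others.

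The other receptors were low. Tlr1 had 1.72 ± 0.610 CPM per kilobase and Tlr9 1.57 ± 1.27 (SD, n = 24), with Tlr1 the higher of the pair in 17 of 24 libraries. Tlr7 had 1.05 ± 0.369, Tlr4 1.04 ± 0.510 and Tlr2 0.931 ± 0.507. Neighbours from Tlr1 down to Tlr2 differed by less than their spread between libraries, and Tlr9 exceeded Tlr7 in 13, Tlr7 exceeded Tlr4 in 14 and Tlr4 exceeded Tlr2 in 15 of 24 libraries. Tlr5 had 0.621 ± 0.288 and Tlr8 0.596 ± 0.354, which cannot be ordered either (Tlr5 above Tlr8 in 13 of 24). Tlr9 had the largest spread relative to its mean of the 9 tested members, with a range of 0.564 to 5.03 CPM per kilobase.

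Tlr6 was the lowest, at 0.239 ± 0.185 CPM per kilobase (SD, n = 24). Its 263 reads over all libraries left 10 libraries with 3 reads or fewer and 3 with none, and it did not pass the filter on low counts. Tested with no filter, it had log2 fold changes of 0.82 (SE 0.544) for HFD vs. CD and 0.54 (SE 0.563) for CDmetf vs. CD, both at an adjusted p of 0.968 or more (edgeR). Of the 3 receptors found in mice and not in the list, Tlr12, a receptor for profilin of protozoa, had 1.86 ± 0.555 CPM per kilobase, Tlr13, which binds bacterial ribosomal RNA, 0.949 ± 0.373 and Tlr11 0.415 ± 0.190.

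No member passed the test between groups after adjustment. With edgeR's quasi-likelihood test and Benjamini-Hochberg adjustment over 14076 genes, 0 of 9 members and 0 genes in all (0% in each) had an adjusted p below 0.05 in the diet contrasts HFD vs. CD and HFDmetf vs. CDmetf, in the metformin contrasts CDmetf vs. CD and HFDmetf vs. HFD, or in the diet by metformin interaction. limma-voom also called 0 genes in each, and DESeq2 called 13, 3, 4, 0 and 4 genes in that order. No member was among the DESeq2 calls. In HFDmetf vs. CDmetf, however, DESeq2 gave no adjusted p for any of the 9 members, so none could be called there. At an unadjusted p below 0.05 the 9 members gave 2, 1, 2, 0 and 2, against 652 (4.63%), 1108 (7.87%), 724 (5.14%), 931 (6.61%) and 849 (6.03%) of all genes. The study itself, with limma-voom, reported genes past a false discovery rate of 0.05 in each diet and each metformin contrast. It named Tlr9 among the genes of an enriched NF-kappa B term in HFDmetf vs. HFD and HFDmetf vs. CDmetf. The cause of this difference from the result here was not tested.

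Among the surface receptors, Tlr1 had the smallest p of any member. Its lowest, median and highest levels were 2.86, 4.04 and 5.56 CPM in CD, 5.61, 7.67 and 10.2 in CDmetf, 2.35, 5.52 and 8.98 in HFD and 3.45, 5.24 and 6.93 in HFDmetf (n = 6 each). The 6 CDmetf libraries thus all lay above the 6 CD libraries, if only just, while HFD and HFDmetf overlapped both. Such a gap with CDmetf the higher group was seen in 11 of 14076 genes (0.0781%), and in no other member in any of the 4 contrasts. The log2 fold change for CDmetf vs. CD was 0.84 (SE 0.233), a fold of 1.79, higher in 6 of 6 pairs of the same sex and number (a match by label only), and passed an unadjusted threshold of 0.05 but not the adjusted one (adjusted p = 0.940, edgeR). Within the 3 replicate numbers the mean difference was 0.95, 0.95 and 0.79 on the log2 scale. In HFDmetf vs. CDmetf it was -0.45 (SE 0.235, adjusted p = 0.647), lower in 6 of 6 pairs with overlapping groups. In HFDmetf vs. HFD it was -0.04 (SE 0.239), and the difference between the 2 metformin contrasts was -0.89 (SE 0.333, adjusted p = 0.799).

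The other surface receptors overlapped between all groups. Tlr2 ranged from 0 to 6.86 CPM over the 24 libraries, and its log2 fold changes in the 4 contrasts lay between -0.21 and 0.51 with SEs of 0.433 to 0.449. Tlr4 ranged from 1.96 to 12.5 CPM, with its largest difference in CDmetf vs. CD (0.62, SE 0.369, 95% interval -0.16 to 1.40). Without CD M3 that difference was 0.40. Both of the highest Tlr4 values came from CDmetf males. Tlr5 ranged from 1.27 to 6.08 CPM and differed most in HFD vs. CD (-0.44, SE 0.322, 95% interval -1.12 to 0.24), a value that was -0.16 (SE 0.342) without the library labelled HFD M2 and that labelled HFD F2. The intervals leave room for differences beyond a doubling or a halving for Tlr2, Tlr4 and Tlr5, and for Tlr1 in CDmetf vs. CD (0.35 to 1.34).

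**Figure D2:**
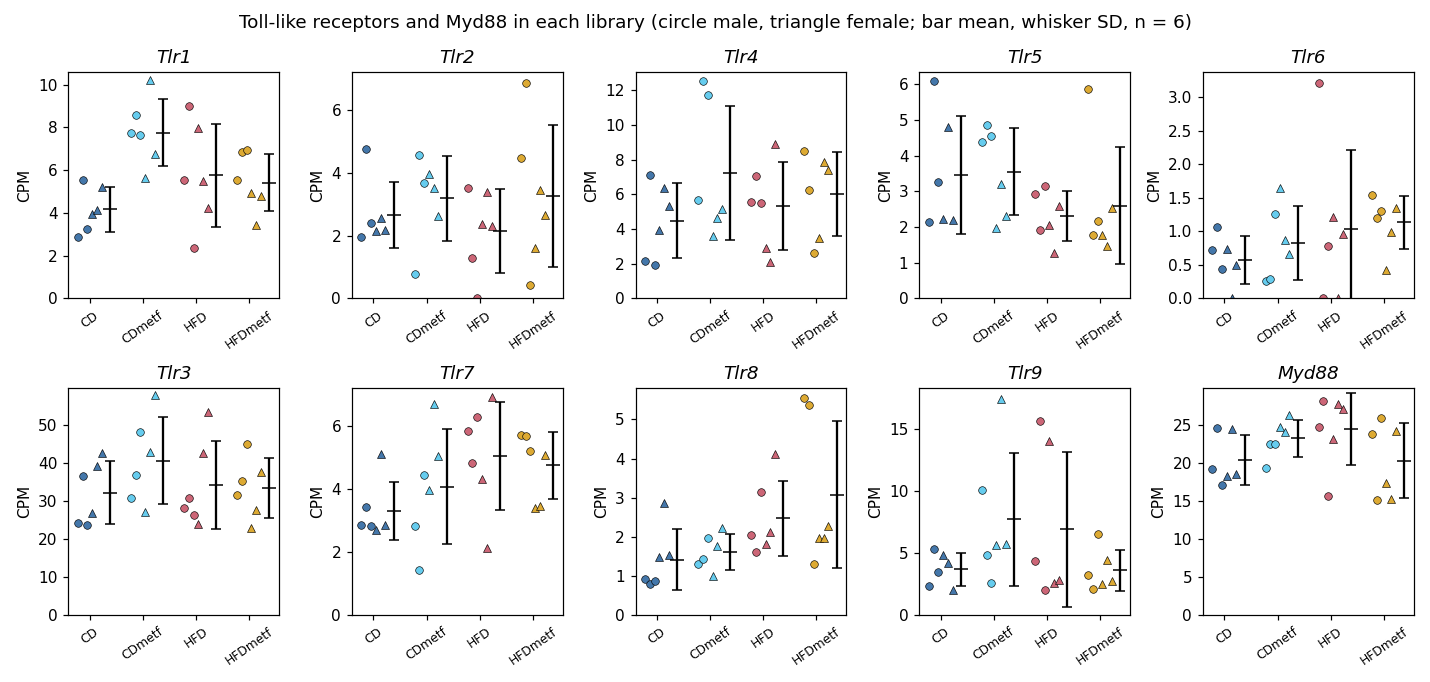
CPM of each gene (y axis, from 0) in the 4 groups (x axis), with circles for males, triangles for females, and the mean with SD beside each group of 6. Tlr1 is the gene whose CD and CDmetf points do not overlap, and the high Tlr9 points belong to 2 HFD and 2 CDmetf libraries.

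Among the endosomal receptors, Tlr8 was higher in both HFD groups than in their controls before adjustment. Its lowest, median and highest levels were 0.794, 1.20 and 2.87 CPM in CD, 0.991, 1.59 and 2.21 in CDmetf, 1.60, 2.08 and 4.11 in HFD and 1.30, 2.12 and 5.56 in HFDmetf. The groups overlapped, and each contrast was higher in 5 of 6 pairs. The log2 fold change was 0.83 (SE 0.387) in HFD vs. CD and 0.98 (SE 0.387) in HFDmetf vs. CDmetf, with adjusted p of 1.00 and 0.599 (edgeR). In HFDmetf vs. CDmetf it fell to 0.58 with limma-voom and to 0.61 without HFDmetf M1. In HFD vs. CD it was 1.04 (SE 0.421) when the 2 HFD libraries with sex-linked reads against their label were left out.

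Tlr7, the neighbour of Tlr8 on the X chromosome, had a median of 2.86 CPM in CD (2.70 to 5.11), 4.21 in CDmetf (1.43 to 6.70), 5.32 in HFD (2.11 to 6.93) and 5.14 in HFDmetf (3.40 to 5.71). Its log2 fold change in HFD vs. CD was 0.64 (SE 0.290, adjusted p = 1.00, under 0.05 unadjusted), higher in 5 of 6 pairs, against 0.29 (SE 0.291) in HFDmetf vs. CDmetf. Without those 2 HFD libraries it was 0.87 (SE 0.296, adjusted p = 1.00) in HFD vs. CD. Tlr3 kept within 22.8 to 57.9 CPM, and its differences in the 4 contrasts lay between -0.20 and 0.29 with SEs of 0.147 to 0.149. The highest of these, in CDmetf vs. CD, had the same sign in 6 of 6 pairs (adjusted p = 0.940, edgeR), though the groups overlapped. Without CD M3 it was 0.18. The adaptor Myd88 ranged from 15.2 to 28.2 CPM, and its differences lay between -0.20 and 0.24 with SEs of 0.147 to 0.150. The 95% intervals of Tlr3 and Myd88 stayed within -0.52 and 0.60, so that a doubling lay outside them in every contrast.

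**Figure D3:**
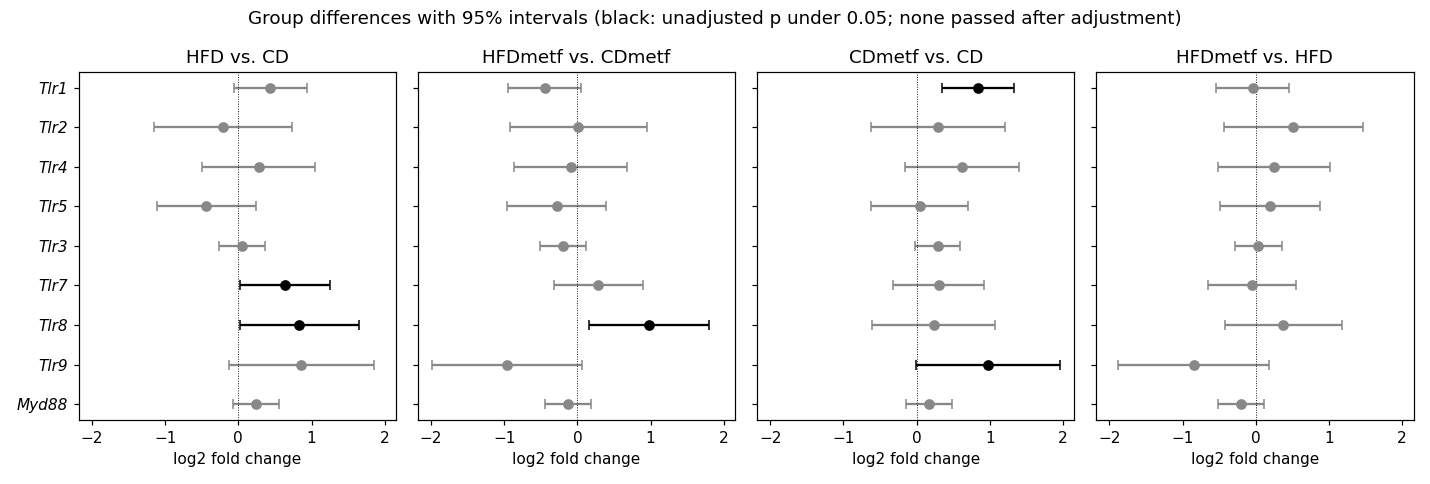
Log2 fold change (x axis) of the 9 tested genes (y axis) in the 4 contrasts, with 95% intervals from the SE and 17 residual degrees of freedom. Black points mark an unadjusted p below 0.05, and no point passed after adjustment, so that Tlr1 in CDmetf vs. CD at 0.84 stands farthest from 0 relative to its error. The intervals are not those of the edgeR test that gave the p. Tlr9 in CDmetf vs. CD is thus black though its interval (-0.01 to 1.96) reaches past 0.

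Tlr9, the receptor of CpG DNA, varied most in proportion to its mean. Its lowest, median and highest levels were 1.97, 3.81 and 5.29 CPM in CD, 2.55, 5.69 and 17.5 in CDmetf, 1.96, 3.60 and 15.7 in HFD and 2.09, 2.99 and 6.50 in HFDmetf (n = 6 each). All groups overlapped, and 4 libraries stood above 10 CPM: CDmetf F2 (17.5), HFD M2 (15.7), HFD F1 (14.1) and CDmetf M1 (10.05). The log2 fold changes were 0.86 (SE 0.471) in HFD vs. CD, 0.97 (SE 0.467) in CDmetf vs. CD, -0.85 (SE 0.491) in HFDmetf vs. HFD and -0.96 (SE 0.485) in HFDmetf vs. CDmetf. The interaction was -1.82 (SE 0.678), below 0.05 before but not after adjustment (adjusted p = 0.799, edgeR), and it ranged from -2.13 to -1.37 as each animal was left out. These contrasts share libraries and are not independent of each other.

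The level of Ms4a1, which encodes the B-cell surface protein CD20, was used as the measure of B-cell content. It ranged from 0.511 to 47.5 CPM. A cut at 2 log2 CPM, chosen after seeing the data, split the libraries into 18 at -0.74 to 1.99 and 6 at 2.90 to 5.57. The highest of the 18, HFDmetf M3, lay just under the cut. The 6 were CD F1, CDmetf M1, CDmetf F2, CDmetf F3, HFD M2 and HFD F1, so HFDmetf held none at this cut. In bulk tissue a difference in the number of B cells and one in the RNA per cell cannot be told apart. All 10 B-cell markers were detected in every group, with summed levels of 8.22 to 78.1 CPM in CD, 11.7 to 410.1 in CDmetf, 15.3 to 343.5 in HFD and 9.67 to 26.1 in HFDmetf. The 6 T-cell markers were detected as well, at 10.7 to 30.01, 10.3 to 76.4, 14.4 to 44.2 and 12.9 to 19.7 CPM.

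Tlr9 was the member that followed Ms4a1. In the 6 libraries with high Ms4a1 it was 4.83 CPM in CD F1, 10.05 in CDmetf M1, 17.5 in CDmetf F2, 5.76 in CDmetf F3, 15.7 in HFD M2 and 14.1 in HFD F1. In the other 18 it lay between 1.96 and 6.50 CPM, so 4 of the 6 lay above all 18 and the other 2 within their range. In a fit with group, sex and replicate number, Tlr9 rose by 0.42 (SE 0.063) on the log2 scale for each doubling of Ms4a1, a fold of 1.33 (adjusted p = 5.42e-04, edgeR over 14401 genes). It was the only one of 9 members called, against 193 of all genes (1.34%), of which 191 had a positive slope.

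**Figure D4:**
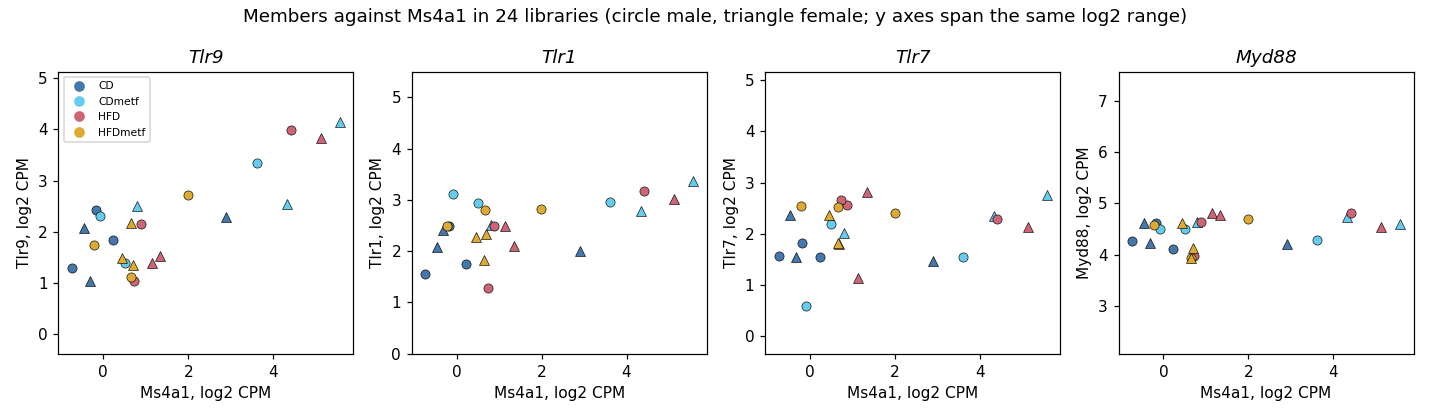
Log2 CPM of Tlr9, Tlr1, Tlr7 and Myd88 (y axes, each spanning the same log2 range) against log2 CPM of Ms4a1 (x axis) in the 24 libraries, coloured by group. Of the 6 libraries at the right, from 2.90 log2 CPM of Ms4a1 on, 4 lie above all others for Tlr9 and 2 do not, while Myd88 has a fitted slope of 0.00.

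The slope of Tlr9 was shallower than those of the B-cell markers. The 9 other markers of the list, all called, had a median slope of 0.87, with 1.11 for Pax5, a transcription factor that keeps B-cell identity, and 0.67 for Cd79a, a chain of the B-cell receptor. Of the called genes 89 had a larger slope than Tlr9, which ranked at place 44 by p. Of 6 T-cell markers 5 were tested, with a median slope of 0.35, and 4 had a positive slope at an unadjusted p below 0.05. Cd3e (0.43, adjusted p = 0.0140) and Trac (0.61, adjusted p = 0.00129), parts of the T-cell receptor, were the 2 called. Some T-cell genes thus moved with the same axis, and their part in the result for Tlr9 was not tested. The slope of Tlr9 was 0.39 (adjusted p = 0.00585) without the library labelled HFD M2 and the one labelled HFD F2, and 0.44 (adjusted p = 0.00132) with the 9 other B-cell markers in place of Ms4a1.

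The fitted slope of Tlr9 was positive in each subset of libraries tried, and its call was kept as single animals were left out. The call was not kept in the 18 libraries of low Ms4a1, in the untreated libraries alone or in the metformin libraries alone. These subsets hold fewer samples. Leaving out each animal in turn gave slopes of 0.38 to 0.46 with adjusted p of 0.000138 to 0.00421. Within these 18 alone, a choice made after seeing the data, the fitted slope was 0.73 (SE 0.300), above the 0.42 of all libraries, and passed 0.05 before but not after adjustment (adjusted p = 0.712, edgeR), in a fit that called 0 genes. With no terms for group, sex and number, Pearson's r in these 18 was 0.190 (p = 0.445) and Spearman's rho 0.156 (p = 0.534), each by 100000 permutations, and r was -0.211 without the 2 libraries farthest from the median. The fitted slope and the plain correlation thus differed in these libraries, where Ms4a1 had as few as 2 reads. Within the 6 libraries r was 0.773 (exact permutation p = 0.0833) and rho 0.886 (exact permutation p = 0.0333), and r was 0.351 without the 2 farthest. No r of Tlr9 with Ms4a1 over all 24 libraries is given. Values within the 2 sets made by the cut at 2 log2 CPM were used in its place. Within groups the simple slopes of Tlr9 were 0.20 in CD, 0.32 in CDmetf, 0.62 in HFD and 0.52 in HFDmetf, and within replicate numbers 0.40, 0.39 and 0.33.

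The remaining members did not pass this test. Tlr1 had a slope of 0.12 (SE 0.050, adjusted p = 0.564), Tlr7 0.05 (SE 0.070), Myd88 0.00 (SE 0.036) and Tlr3 -0.01 (SE 0.037). The slopes of Tlr5 (-0.07), Tlr8 (-0.08), Tlr2 (-0.14) and Tlr4 (-0.15) were negative, with adjusted p of 0.720 to 0.927. Without the library labelled HFD M2 and that labelled HFD F2, the slope of Tlr4 was -0.21 (SE 0.085). It was then under 0.05 before but not after adjustment (adjusted p = 0.514, edgeR). Over the 24 libraries the slope of Tlr9 itself was larger than that of each of the 9 others, Tlr6 with its few reads included. Tlr9 was picked for this comparison because of its slope in these same libraries. The p-values that follow are therefore a description and no independent support. The difference, tested by permuting the residuals of the log2 ratio over the 24 libraries (two-sided, 100000 permutations, 9 comparisons, not adjusted), was smallest against Tlr1 (0.29, p = 3e-04) and largest against Tlr2 (0.59, p = 0.00141). Among the other endosomal receptors the same permutation test gave 0.42 against Tlr3 (p = 3e-05), 0.33 against Tlr7 (p = 0.00101) and 0.48 against Tlr8 (p = 5.3e-04). Against Myd88 it was 0.41 with p = 1e-05, the smallest that these permutations can give.

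With log2 CPM of Ms4a1 added to the fit of the groups, the differences of Tlr9 shrank to -0.23 (SE 0.319) in HFD vs. CD, -0.09 (SE 0.311) in CDmetf vs. CD and 0.06 (SE 0.308) in HFDmetf vs. HFD, and the interaction to 0.15 (SE 0.482). Ms4a1 is itself a measured gene of the same libraries, with 2 to 13 reads in many of them, and its counting error enters these values. The difference of Tlr1 in CDmetf vs. CD was 0.56 (SE 0.239, adjusted p = 0.763) in the same fit, and that of Tlr8 in HFDmetf vs. CDmetf was 0.78 (SE 0.440). That of Tlr4 in CDmetf vs. CD was larger in this fit, at 0.92 (SE 0.383, adjusted p = 0.763, under 0.05 unadjusted) against 0.62 without Ms4a1.

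Macrophages are the other main carriers of these receptors, and their content was measured by the mean log2 CPM of 9 marker genes. All 9 were detected in every group, at summed levels of 148.1 to 219.6 CPM in CD, 177.5 to 296.2 in CDmetf, 177.3 to 283.0 in HFD and 181.2 to 311.9 in HFDmetf, a far narrower range than that of the B-cell markers. On this score 0 of 9 members were called by edgeR, and 0 by limma-voom or DESeq2, against 151 of 14393 genes (1.05%), and 4 had an unadjusted p below 0.05, against 2350 genes (16.3%). Tlr8 had the largest slope, at 1.36 (SE 0.471, adjusted p = 0.162), followed by Tlr4 with 1.02 (SE 0.482), Tlr2 with 1.00 (SE 0.600), Tlr5 with 0.99 (SE 0.411) and Tlr7 with 0.88 (SE 0.365). All of these but Tlr2 were under 0.05 before adjustment. Tlr8 passed the threshold without CDmetf F1 (1.80, adjusted p = 0.0424) and in a fit with no group terms (1.66, adjusted p = 0.0118), but not without the 2 libraries that went against their sex label (1.43, adjusted p = 0.275). Fibroblast genes moved with the score as well, 3 of 5 being called with a median slope of 1.61, and their part in these slopes was not tested. Tlr9 had a slope of -1.08 (SE 0.675), which turned to 0.46 (SE 0.453) with Ms4a1 beside the score.

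**Figure D5:**
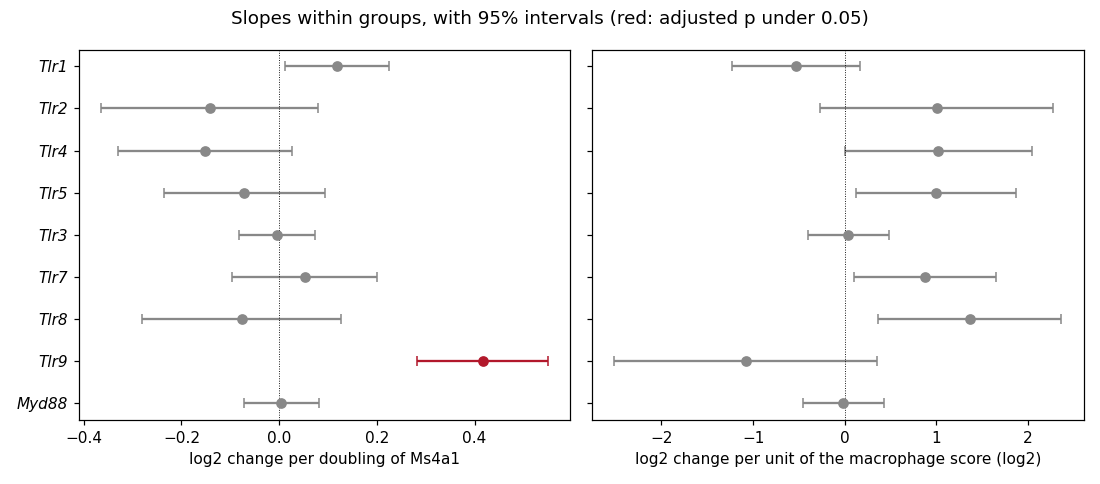
Log2 change of the 9 tested genes (y axis) per doubling of Ms4a1 (left) and per unit of the macrophage score (right), with 95% intervals from the SE and 16 residual degrees of freedom. Red marks an adjusted p below 0.05, reached by Tlr9 at 0.42 on the left and by no gene on the right.

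The genes with the pattern most like each member differed from receptor to receptor. Over the 24 libraries and 11568 genes, log2 CPM of Tlr9 was most like that of Cd52, a surface protein of lymphocytes (Pearson's r 0.892), Il2rg, the common cytokine receptor chain (0.872), and Pou2f2, which encodes the octamer-binding protein Oct-2 (0.869). Tlr8 was most like Adgre1, a macrophage marker and 1 of the 9 genes of the score (0.712), followed by Cmtm3 (0.686) and Rgs4 (0.675). Tlr7 was most like Gpr137b (0.765), Cd33 (0.755), a myeloid surface protein, and Cybb (0.724), a subunit of the phagocyte oxidase. Tlr1 was most like Syk (0.757), a kinase of immune receptors, Rab11b (0.745), a small GTPase of vesicle traffic, and Adprh (0.735). Tlr4 followed F2r (0.884), the thrombin receptor, F3 (0.856), tissue factor, and Id4 (0.852). Tlr3 followed Asah1 (0.890), acid ceramidase, Ang (0.869), the ribonuclease angiogenin, and Adgrg7 (0.861). Myd88 followed Lrrc1 (0.815), Tmc5 (0.814) and Snx1 (0.793). Tlr5 was most like Endod1 (0.857), Snx33 (0.824) and Rtn4 (0.807), and Tlr2 most like Cdk2ap1 (0.898), Hspbp1 (0.811) and Kif20a (0.785). Tlr2 had 0 reads in HFD M3, where its log2 CPM of -3.52 is set by the prior count. Its r without that library was not taken. The points share library depth and tissue composition, and these values are a description of the largest r among many genes. Those of Tlr9 span the libraries of high and low Ms4a1 together and were not taken within the 18 or the 6.

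No member passed the test between the sexes after adjustment. edgeR called 1 gene (0.0071%) and 0 of 9 members in males against females, with 1023 genes (7.27%) and 1 member at an unadjusted p below 0.05, while limma-voom called 1 gene and DESeq2 19. That member was Tlr5, higher in males by 0.65 (SE 0.228) on the log2 scale (adjusted p = 0.570). The X-linked Tlr7 and Tlr8 differed by 0.02 (SE 0.206) and 0.03 (SE 0.280). This comparison holds the 2 libraries whose sex-linked reads went against the label. Without them edgeR called 8 genes and again no member, with Tlr5 at 0.66 (SE 0.222, adjusted p = 0.603), Tlr7 at -0.03 (SE 0.195) and Tlr8 at 0.05 (SE 0.286).

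Of 55 other genes of the pathway, 44 were tested between groups and 0 were called in any contrast by edgeR, with 2 at an unadjusted p below 0.05 in HFD vs. CD (4.63% of all genes), 8 in HFDmetf vs. CDmetf (7.87%), 2 in HFDmetf vs. HFD (6.61%), 4 in CDmetf vs. CD (5.14%) and 6 in the interaction (6.03%). On Ms4a1, 1 of 45 was called, against 1.34% of all genes, and 9 of 45 had an unadjusted p below 0.05, all with a positive slope, against 680 of all genes (4.72%) with a positive slope. This was Cd180, a receptor-like protein of B cells related to Tlr4, with a slope of 0.38 (SE 0.079, adjusted p = 0.0101), close to that of Tlr9. Its partner Ly86 had 0.12 (SE 0.057), Unc93b1, the chaperone that brings endosomal receptors to their compartment, 0.08 (SE 0.034), and Irf5, a factor activated through Myd88, 0.17 (SE 0.050), all with adjusted p of 0.149 or more. Among the 15 kinases and ligases downstream of Myd88 0 were called and Traf3 came nearest, at 0.08 (SE 0.027, adjusted p = 0.283). Of the NF-kappa B subunits in the list Rel had 0.11 (SE 0.039, adjusted p = 0.396), and of the negative regulators Tnfaip3 had 0.11 (SE 0.042, adjusted p = 0.458). Of 10 genes that these receptors are known to induce, 3 had enough reads to be tested on Ms4a1 and 0 were called.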

How the data were processed

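Per the labels and the study's methods, the authors depleted ribosomal RNA, made directional libraries (PE100), used Trimmomatic 0.39 for trimming and STAR 2.5.3a for mapping to GRCm38 and counting; which annotation and which strand were counted is not given in the sources used here. The authors deposited raw read counts per gene for 55536 genes, of which 55450 had a name in GENCODE M21; 4 rows that name no gene were left out, and 0 columns belonged to other samples. The members and lists were chosen with earlier results of these data known. Groups came from the sample titles. Counts were filtered with filterByExpr (14076 genes), scaled by TMM and tested with edgeR 4.0.16 in R 4.3.3 (quasi-likelihood, all 24 libraries, terms for group, sex and replicate number as block, Benjamini-Hochberg, threshold 0.05). The methods of the study name a sequencing block as covariate; whether the replicate number is that block is not stated. Slopes were fitted on log2 CPM (prior count 1) of Ms4a1 or on the macrophage score with the same terms. The planned correlation over all libraries was replaced by values within 2 sets of libraries, split at 2 log2 CPM of Ms4a1, a cut chosen after seeing the data. The genes named were the 10 members, Ms4a1, the 3 genes most like each member (at least 10 reads in at least 20 libraries), and of each pathway list those past the threshold or, with none, up to 2 with the smallest p; other marker and pathway genes were named after their values were seen. The motifs were chosen with the values known; 3 longer ones (NF-kappa B, interferon response element, EBF1) were also searched and are not reported here. Promoters came from RefSeq (GRCm38.p6; 8 of 10 members matched) and transcripts from GENCODE M21. The alternatives included DESeq2 1.42.0, limma-voom with limma 3.58.1, RLE scaling, other filters, no block, no sex term, fits of the 12 libraries compared, Ms4a1 as a term and leaving out animals. Tested on simulated data, the HFD vs. CD test recovered 60.5% of simulated log2 changes of 1 (14012 genes) and the Ms4a1 test 88% of slopes of 0.4 (14017 genes). Of the calls, 4.72% and 6.38% were genes left unchanged. The changed genes were drawn from all levels and Ms4a1 was taken as free of error, so these rates need not hold for the low receptors. With 1829690 to 40606442 reads on genes, the receptors other than Tlr3 had as few as 0 to 6 reads in their shallowest library, which limits their precision.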

Additional observations from a re-analysis of the deposited data

Results flagged for a closer look

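In 40 sets of 6 libraries (10 genes in 4 groups), 4 held a library whose gap to the next exceeded Dixon's 95% limit, and chance flags about 1 in 20 sets. Tlr2 was 4.76 CPM in CD M2, with the other 5 CD libraries at 1.94 to 2.55 CPM. Tlr5 was 5.87 CPM in HFDmetf M1, with the others at 1.48 to 2.52. In the library of CD F2 both Tlr7, at 5.11 CPM against 2.70 to 3.44, and Tlr8, at 2.87 CPM against 0.794 to 1.53, stood above the other CD libraries. Without CD F2 the log2 fold changes for HFD vs. CD were 0.80 for Tlr7 and 1.07 for Tlr8.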

How the results depend on the processing

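The group contrasts gave 0 calls with edgeR under RLE scaling, with no filter, with at least 10 counts in every library, without the replicate block and without the sex term, and 0 to 1 (HFD vs. CD) as single animals were left out. DESeq2 called 13 genes in HFD vs. CD, 3 in HFDmetf vs. CDmetf, 4 in CDmetf vs. CD, 4 in the interaction and 19 between males and females; the last count was 15 with no filter, 8 without the library labelled HFD M2 and that labelled HFD F2, and 1 to 8 as single animals were left out. With Ms4a1 in the fit the differences of Tlr9 turned to -0.23 (HFD vs. CD), 0.064 (HFDmetf vs. HFD), -0.087 (CDmetf vs. CD) and 0.15 (interaction). The 193 genes called on Ms4a1 became 40 with at least 10 counts in every library (9663 genes tested, Tlr9 not among them), 0 in the 18 libraries of low Ms4a1 (994 at an unadjusted p below 0.05), 14 in the 12 untreated and 23 in the 12 metformin libraries, and 107 (without CDmetf F2) to 212 (without CD F1) as animals were left out. Tlr9 had a slope of 0.48 (adjusted p = 0.192) in the untreated and 0.37 (adjusted p = 0.402) in the metformin libraries; these 3 subsets hold fewer samples and were chosen after seeing the data. Its correlation with Ms4a1 in the 18 libraries turned to -0.21 without 2 libraries. The 151 genes called on the macrophage score became 518 with DESeq2, 85 with RLE scaling, 74 with no filter, 11 without the library labelled HFD M2 and that labelled HFD F2, 277 with no sex term, 30 with Ms4a1 beside it, 435 with no group terms, and 11 (without HFD F3) to 439 (without CDmetf F1) as animals were left out; the slope of Tlr9 turned to 0.46 with Ms4a1 beside it and that of Tlr1 to 0.014 with no group terms. The cause of these changes was not tested.

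Libraries with the same replicate number in different groups had a mean correlation of deviations of 0.155 (72 pairs, -0.467 to 0.669) against -0.077 for different numbers (144 pairs), so not every pair was alike. The numbers were not taken to show that animals belong together, and the term for them was kept because the methods of the study name a block. Without the replicate block the slope of Tlr9 was 0.45 (adjusted p = 6.99e-04), 206 genes were called on Ms4a1, and no call of a member changed.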
